A study of Mus musculus with 6 samples.

Results

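The genes described here carry glucose through glycolysis to lactate, together with the oxygen-sensing genes and the hypoxia-response genes that share their control. They number 41 of the 23462 genes with a symbol on the array. The list was set by pathway knowledge, with earlier results of these data known. It holds 19 genes of the glycolytic steps, 7 of lactate supply, 4 of oxygen sensing and 11 targets of the hypoxia-inducible factors (HIF). All probes whose transcript accession maps to a listed symbol were collected, which gave 69 probes, and each gene was represented by its brightest probe. For 39 genes this probe stood well above the local background on every array of 1 group or both.

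The cells were TM4, an established mouse line from the testis that is widely used as a model of Sertoli cells. There were 3 untreated samples, labelled as 24 h at 0 µM, and 3 samples exposed for 24 h to 10 µM of 4-nitrophenol (PNP). PNP is a pollutant released by diesel engines and left behind by the insecticide parathion as it breaks down. Total RNA was labelled with Cy3 and put on single-colour Agilent arrays, 1 per sample. The labels give replicate numbers but do not say that replicates were separate cultures, so the p-values rest on the spread between samples that may be technical repeats. The labels call the line a male testicular somatic one; it was cultured without the germ cells that Sertoli cells serve.

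Sertoli cells take up glucose, break it down by glycolysis and export lactate, which developing germ cells use as fuel. The last steps are lactate dehydrogenase, which turns pyruvate into lactate, and monocarboxylate transporters, which carry lactate across the membrane. When oxygen is short, the prolyl hydroxylases of the EGLN family no longer mark HIF-alpha subunits for destruction, and HIF binds short DNA elements with the core ACGTG or GCGTG, named hypoxia response elements, beside many genes of glycolysis and of the hypoxia response.

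The arrays were spread over 3 slides, with 1 array at each of 2 positions per slide. Position 1 held untreated 1, untreated 3 and PNP 2, and position 2 held untreated 2, PNP 1 and PNP 3, so position and treatment were partly confounded. Between 47.93% and 57.87% of probes were well above background on each array, and no spot was saturated. Of 20 Sertoli markers, 13 were well above background on all 6 arrays, among them Sox9, Wt1, Gata4 and Dmrt1, whereas Amh, Fshr, Cldn11 and Aard were on none. None of 7 Leydig markers was above background on any array. Of 4 endothelial markers, Cdh5, Tek and Kdr were above background on no array, and Pecam1 was on some but not all arrays. Of 8 germ cell markers only Sycp3 passed on all arrays, with Ddx4, Stra8, Acrv1 and Prm1 on none. All 6 peritubular myoid markers passed, as did Csf1r and Cd68 of 5 macrophage markers, with Adgre1, Ptprc and C1qa on none. The summed linear level of the measured Sertoli markers, relative to each array's 75th percentile, was 16.4 to 20.01 in untreated and 14.6 to 17.9 in PNP cells. The summed level of the 5 myoid markers with a value on every array (Acta2 had none on untreated 1) was 77.0 to 125 and 81.2 to 119, and the summed macrophage level 5.27 to 9.68 and 4.34 to 7.96. The part of these marker levels in the results below was not tested.

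Values below are log2 processed signal minus the array's 75th percentile, so 0 is the level of the probe at that percentile and 1 unit is a doubling. They are given in the order untreated 1, 2 and 3, then PNP 1, 2 and 3. Levels are compared between arrays for 1 gene, not between genes. A difference is the PNP mean minus the untreated mean, with the standard error (SE) of limma's moderated fit. P-values are two-sided and were adjusted over all 21565 units tested by Benjamini-Hochberg with a threshold of 0.05. The units were 13559 named genes and 8006 transcripts with no symbol, each represented by its brightest probe.

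The promoters of 4 of the 6 genes that were lower at position 2 without overlap, and that of Hif1a, are shown first as examples. These are genes of the hypoxia pathway, and their upstream sequence is where the HIF core is looked for. Each line gives the 250 bases before the annotated start, 5′ to 3′ on the gene's strand, from RefSeq (GRCm38.p6), with every ACGTG or GCGTG on either strand in capitals. On the opposite strand these read CACGT and CACGC. Slc16a3 lies at chr11:120948817-120949066 on the plus strand, Egln3 at chr12:54203875-54204124 on the minus strand and Egln1 at chr8:124949255-124949504 on the minus strand. Ankrd37 lies at chr8:45999851-46000100 on the minus strand and Hif1a at chr12:73907617-73907866 on the plus strand. Eno2 at chr6:124769674-124769923 on the minus strand is added because it separated by position in the opposite direction.
Slc16a3: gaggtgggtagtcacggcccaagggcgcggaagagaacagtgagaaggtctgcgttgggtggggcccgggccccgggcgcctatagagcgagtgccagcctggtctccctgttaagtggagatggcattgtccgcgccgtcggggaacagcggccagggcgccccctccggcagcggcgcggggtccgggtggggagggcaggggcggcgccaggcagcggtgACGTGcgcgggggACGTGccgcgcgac
Egln3: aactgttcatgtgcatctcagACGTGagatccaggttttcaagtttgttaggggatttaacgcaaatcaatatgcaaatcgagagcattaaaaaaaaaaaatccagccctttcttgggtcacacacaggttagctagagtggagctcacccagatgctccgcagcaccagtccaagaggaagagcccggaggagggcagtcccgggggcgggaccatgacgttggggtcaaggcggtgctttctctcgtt
Egln1: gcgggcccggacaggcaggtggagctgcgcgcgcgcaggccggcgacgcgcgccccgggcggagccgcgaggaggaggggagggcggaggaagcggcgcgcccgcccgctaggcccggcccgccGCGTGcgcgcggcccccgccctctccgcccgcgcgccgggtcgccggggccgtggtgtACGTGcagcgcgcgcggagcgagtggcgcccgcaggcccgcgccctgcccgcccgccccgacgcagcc
Ankrd37: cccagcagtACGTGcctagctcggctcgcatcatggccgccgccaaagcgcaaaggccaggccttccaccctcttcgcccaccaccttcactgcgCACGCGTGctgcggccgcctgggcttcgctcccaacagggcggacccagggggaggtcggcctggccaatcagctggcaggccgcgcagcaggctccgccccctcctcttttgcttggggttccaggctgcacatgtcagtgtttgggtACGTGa
Hif1a: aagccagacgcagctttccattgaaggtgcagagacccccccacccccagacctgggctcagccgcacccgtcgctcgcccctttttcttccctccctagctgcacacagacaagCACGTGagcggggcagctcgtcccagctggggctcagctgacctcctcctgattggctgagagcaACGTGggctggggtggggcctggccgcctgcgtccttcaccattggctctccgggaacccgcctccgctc
Eno2: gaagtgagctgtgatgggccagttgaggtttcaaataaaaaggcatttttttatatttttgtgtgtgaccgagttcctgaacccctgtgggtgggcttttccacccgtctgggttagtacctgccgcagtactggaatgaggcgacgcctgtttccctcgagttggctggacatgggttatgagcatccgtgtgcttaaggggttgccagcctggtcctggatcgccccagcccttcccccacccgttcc
The windows of Slc16a3 and Egln1 held 2 cores each, that of Egln3 held 1, that of Ankrd37 held 4 and that of Hif1a held 3, and a pair of cores overlaps in each of the last 2. The Eno2 window held none. Pfkfb3, Ldhb and Vegfa separated by position in the same direction as Eno2, and their promoters did hold cores. There were 3 and 1 in the windows of Pfkfb3, 1 in that of Ldhb, and 2 and 0 in those of Vegfa. Slc16a1 and Ddit4 separated by position in the same direction as Slc16a3, and their windows, not shown, held 4 and 2 cores. A promoter was listed for 37 of the 41 genes, and 34 had a core in at least 1 promoter. Of their 55 promoters 43 held a core (78.18%), against 12679 of all 32851 promoters of the table (38.6%). Windows of 1 gene can overlap, as for Eno1 and Aldoa, so the same core can be counted in more than 1 promoter. The listed genes were also chosen in part as HIF targets. ACGTG occurred in 16.57% of all promoters and GCGTG in 28.16%. A match is a description of the letters and not a measured binding site.

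**Figure D1:**
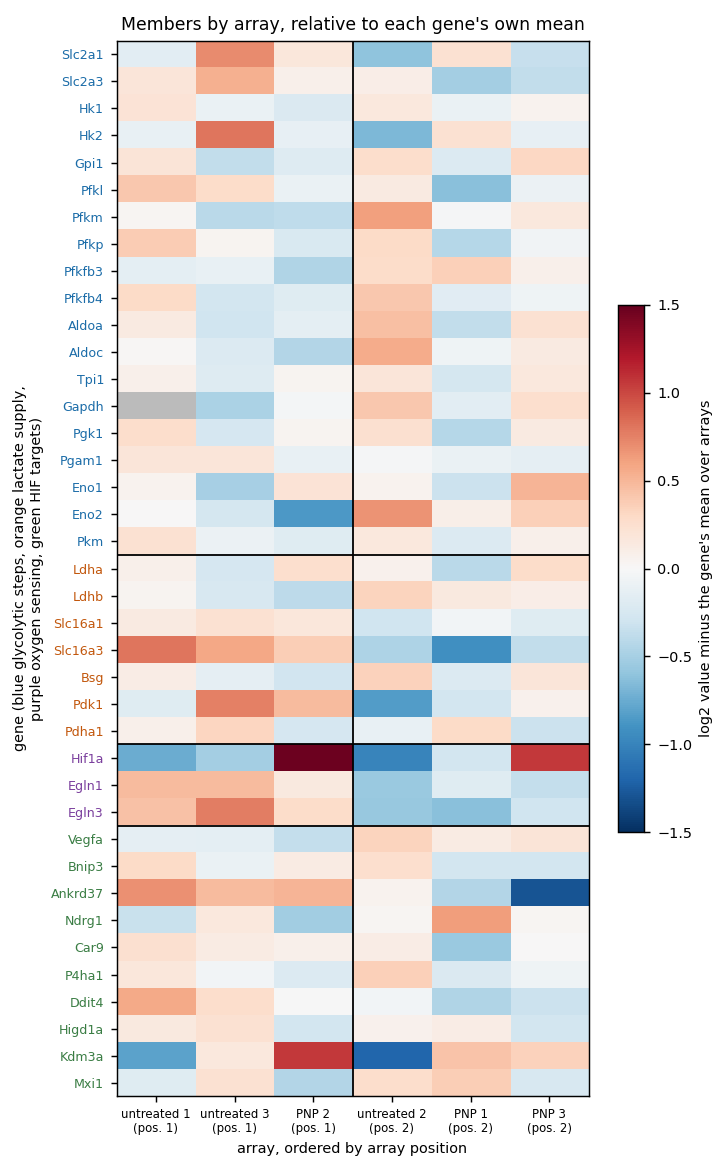
Heat map of the 39 measured genes (rows, grouped by role) on the 6 arrays (columns, ordered by array position), as log2 value minus the gene's mean over the arrays; grey marks an array without a value. Hif1a and Kdm3a are highest on PNP 2, while Slc16a3, Egln1 and Egln3 are higher on the 3 position 1 arrays than on the 3 position 2 arrays.

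The first question was whether PNP altered the expression of these genes. None of the 39 measured genes passed the adjusted threshold between PNP and untreated cells, and their adjusted p ranged from 0.299 to 0.997. The same limma test called none of the 21565 units (0.00%), with a smallest adjusted p of 0.105, and 1477 units higher and 663 lower at an unadjusted p under 0.05. The oxygen-regulated HIF subunit Hif1a and the HIF target Kdm3a had the largest differences, both higher with PNP, and the phosphofructokinase gene Pfkl was lower. At an unadjusted p under 0.05 these were 2 genes higher and 1 lower, or 5.13% and 2.56% of those measured. Over all units those shares were 6.85% higher and 3.07% lower, and over named genes 3.63% and 2.9%.

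Of the 39 genes, 31 (79.5%) had a lower mean with PNP and 8 a higher one, with a median of -0.19. Lower means were also held by 62.2% of named genes and 55.2% of all units. The median over all named genes was -0.089 and over all units -0.042. The values of the 2 groups did not overlap for 2 genes that were higher (Hif1a and Kdm3a) and 6 that were lower with PNP (Slc2a3, Pfkl, Pfkp, Pgam1, Car9 and P4ha1). Those are 5.13% and 15.4% of the genes, beside 7.62% of all units higher and 7.92% lower, and beside 8.84% of named genes lower. The count of lower genes moved with the scaling of the arrays. It was 35 of 39 when arrays were centred on their median, which shifted the median of all units to -0.15, and 25 of 39 when the percentile was taken over probes detected on all arrays, which shifted it to 0.034.

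**Figure D2:**
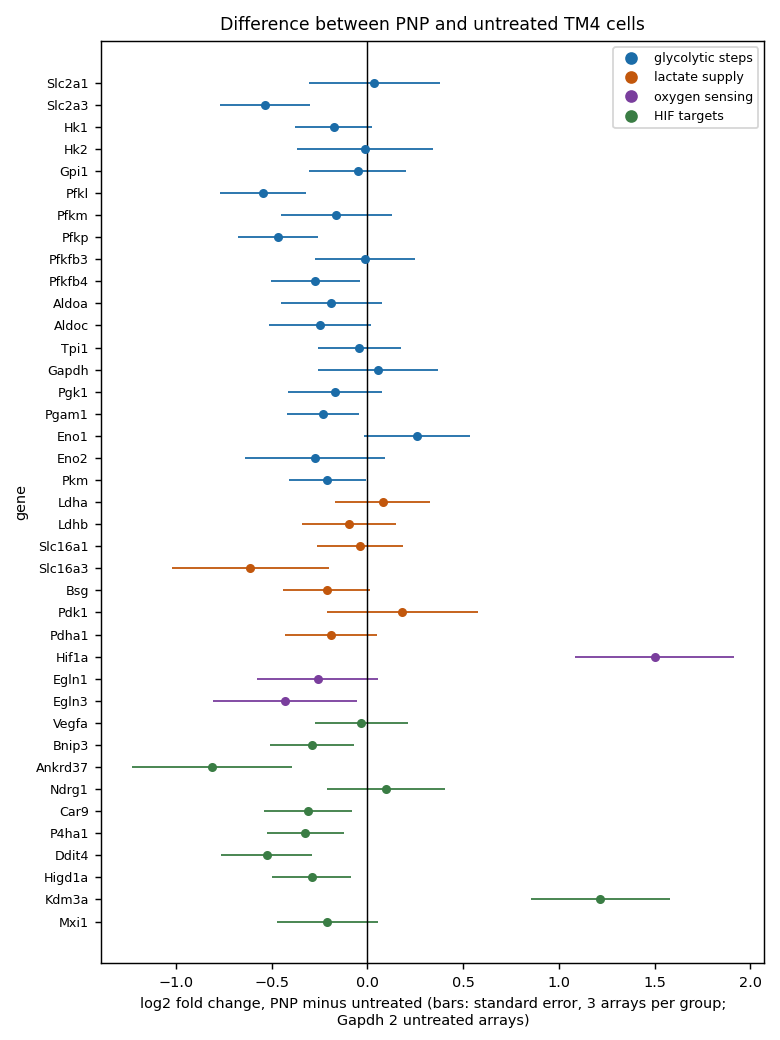
Difference between PNP and untreated cells (horizontal axis, log2) for each measured gene (vertical axis); points are differences of group means, bars are standard errors and colours mark the gene groups. Hif1a (1.50) and Kdm3a (1.22) stand to the right, and the other points lie between -0.81 (Ankrd37) and 0.26 (Eno1).

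Among the 19 glycolytic genes, none passed the adjusted test in either direction, the median difference was -0.18, and 16 of 19 differences (84.2%) were negative, beside 62.2% of named genes. The lowest difference was that of a gene for phosphofructokinase, the enzyme that commits fructose 6-phosphate to glycolysis. Pfkl, its liver-type subunit, read 4.18, 3.91 and 4.05 in untreated and 3.14, 3.67 and 3.68 in PNP cells. All 3 PNP values lay below all 3 untreated values. The difference was -0.55 ± 0.23 (SE, n = 3 per group; 95% interval -1.06 to -0.032; limma unadjusted p = 0.0399, adjusted p = 0.481). Pfkp, the platelet-type subunit, read 4.57, 4.48 and 4.23 against 3.77, 3.97 and 4.15. These values did not overlap either, with a difference of -0.47 ± 0.21 (limma adjusted p = 0.509). Pfkm, the muscle-type subunit, read 4.01, 4.59 and 3.57 against 3.96, 3.60 and 4.13, and its groups overlapped (difference -0.16 ± 0.29). A second, dimmer Pfkp probe differed by -0.045, with overlapping groups. With array position in the model the differences were -0.47 for Pfkl and -0.48 for Pfkp.

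Glucose enters through GLUT transporters and is trapped by hexokinase. Slc2a1, which encodes GLUT1, read 2.59, 2.15 and 3.46 in untreated and 2.98, 2.92 and 2.41 in PNP cells. The PNP values lay inside the untreated range, with a difference of 0.035 ± 0.34 and a 95% interval from -0.75 to 0.82. Slc2a3, which encodes the high-affinity transporter GLUT3, read -2.23, -2.30 and -1.87 against -2.91, -2.33 and -2.77. Every PNP value was lower than every untreated value, by a mean of -0.53 ± 0.24 (95% interval -1.07 to 0.0031; limma adjusted p = 0.504). The nearest pair, untreated 2 and PNP 2, was nearly equal at -2.30 and -2.33. A second Slc2a3 probe was well above background on 0 of 6 arrays. Hk2, the inducible hexokinase, read 1.25, 0.68 and 2.16 against 1.59, 1.24 and 1.23. Untreated 3 was the highest and untreated 2 the lowest of its 6 arrays, and the difference was -0.011 ± 0.36 (95% interval -0.82 to 0.80). The constitutive hexokinase Hk1 differed by -0.18 and the isomerase Gpi1 by -0.052.

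Pfkfb3 makes fructose 2,6-bisphosphate, the activator of phosphofructokinase. It read 1.01, 1.42 and 1.04 against 1.51, 0.70 and 1.23, a difference of -0.013 ± 0.26 (95% interval -0.61 to 0.58). The groups overlapped, and the 3 arrays at position 2 were the highest. Pfkfb4, of the same family, differed by -0.27. Aldoc, an aldolase of the brain, read -1.02, -0.47 and -1.24 against -1.10, -1.48 and -0.90, with overlapping groups and a difference of -0.25 ± 0.27. The main aldolase Aldoa and triose phosphate isomerase Tpi1 differed by -0.19 and -0.043.

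The later steps yield NADH and ATP. Gapdh, glyceraldehyde 3-phosphate dehydrogenase, had no value on untreated 1, where it was flagged as an outlier, and read 7.68 and 6.80 on untreated 2 and 3 against 7.12, 7.24 and 7.52 with PNP. The PNP values lay between the untreated ones, with a difference of 0.054 ± 0.31 over 2 and 3 arrays (95% interval -0.68 to 0.79). With the flagged spots kept it was 0.018. Pgk1, phosphoglycerate kinase, read 6.16, 6.13 and 5.64 against 5.46, 5.93 and 6.02 (difference -0.17 ± 0.25). Pkm, pyruvate kinase, read 6.84, 6.77 and 6.52 against 6.40, 6.42 and 6.68 (difference -0.21 ± 0.20). Both sets overlapped, and PNP 1 was the lowest array for both genes. The enolase Eno1 differed by 0.26 ± 0.28, and by -0.12 on a second probe, and the mutase Pgam1 differed by -0.23, with separate groups. Eno2, the neuron-type enolase, read 3.74, 4.40 and 3.47 against 3.82, 2.87 and 4.09 (difference -0.27 ± 0.37), with overlapping groups and all 3 position 2 arrays above all 3 position 1 arrays.

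The genes of lactate supply likewise gave no adjusted call in either direction, and their median difference was -0.096, with 5 of 7 negative. Ldha, the subunit of lactate dehydrogenase that favours making lactate, read 6.48, 6.46 and 6.15 against 6.00, 6.65 and 6.68. The untreated values lay within the PNP range, with a difference of 0.08 ± 0.25 and a 95% interval of -0.48 to 0.64. Ldhb, the subunit that favours making pyruvate, read 3.81, 4.11 and 3.53 against 3.91, 3.38 and 3.87, a difference of -0.096 ± 0.24 (95% interval -0.65 to 0.46). The groups overlapped for each subunit, and for Ldhb the 3 position 2 arrays were the highest.

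Lactate leaves the cell through monocarboxylate transporters that need the chaperone basigin. Slc16a3, which encodes the exporter MCT4, read 2.01, 0.75 and 1.79 in untreated and 0.29, 1.58 and 0.85 in PNP cells. The groups overlapped because untreated 2 was low and PNP 2 was high. The difference was -0.61 ± 0.41 (95% interval -1.55 to 0.32; limma adjusted p = 0.642), and -0.25 with array position in the model. Slc16a1, which encodes MCT1, read 3.51, 3.08 and 3.61 against 3.34, 3.55 and 3.20, an overlap with a difference of -0.039 ± 0.22. Basigin, encoded by Bsg, differed by -0.21.

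Pyruvate dehydrogenase kinase and its target decide whether pyruvate enters the mitochondria. Pdk1, a HIF-induced kinase that switches pyruvate dehydrogenase off, read 0.18, -0.48 and 1.12 against 0.088, 0.84 and 0.43 on its brightest probe (difference 0.18 ± 0.39). The groups overlapped. Its 3 other probes gave differences of -0.25, -0.34 and -0.084, so the direction of Pdk1 depended on the probe. It was the only one of 14 genes with several measured probes whose differences spread by more than 0.5. The sign also differed between probes for Aldoc, Eno1, Gapdh, Gpi1, Ldha and Tpi1, which makes 7 of the 14. Pdha1, the catalytic subunit of pyruvate dehydrogenase, differed by -0.19.

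Of the oxygen-sensing genes, Hif1a had the largest difference of all the listed genes. Hif1a, the oxygen-regulated HIF subunit, read 1.16, 0.91 and 1.40 in untreated and 1.63, 3.37 and 2.97 in PNP cells, or 1.15 ± 0.24 against 2.66 ± 0.91 (mean ± SD, n = 3 each). All 3 PNP arrays lay above all 3 untreated arrays, PNP 1 only slightly so. The difference was 1.50 ± 0.41 (95% interval 0.56 to 2.45), or 2.83-fold, with an unadjusted p of 0.00603 and an adjusted p of 0.299 in limma's test. With array position in the model it was 1.74 (adjusted p = 0.179), and it was 2.10 within position 1, with 1 PNP array, and 1.39 within position 2, with 1 untreated array. The adjusted p ranged from 0.00966 to 0.986 over 24 alternative settings. It passed the threshold without PNP 1 (2.02, limma adjusted p = 0.0499) but not without PNP 2 (1.14, adjusted p = 0.514). With slide as a fixed block, a comparison that rests on slide 2 alone because only that slide held both groups, with PNP 1 at position 2 and untreated 3 at position 1, the difference was 0.23. Hif1a is measured by 1 probe here, and in a cell population more RNA per cell and more cells that express it cannot be told apart.

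Epas1, which encodes HIF-2 alpha, was well above background on 0 of 6 arrays, with readings of -6.90 to -6.12, so no fold was taken. Egln3, the hydroxylase PHD3, read -1.30, -2.30 and -0.97 against -2.37, -1.46 and -2.04. The groups overlapped, at a difference of -0.43 ± 0.38 (limma adjusted p = 0.716) that was -0.11 with array position in the model. Egln1, the hydroxylase PHD2, read 3.41, 2.37 and 3.41 against 2.75, 3.08 and 2.58, an overlapping pair with a difference of -0.26 ± 0.32 that was -0.017 with position in the model. Both hydroxylase genes are themselves HIF targets.

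Among the 10 measured HIF targets none passed the adjusted test, 8 differences were negative, and the median was -0.29. Kdm3a, a hypoxia-induced histone H3 lysine demethylase, was the exception in size. It read 0.23, -0.16 and 1.19 in untreated and 1.45, 2.09 and 1.37 in PNP cells, or 0.42 ± 0.69 against 1.64 ± 0.39 (mean ± SD, n = 3 each). The groups did not overlap, the nearest pair being untreated 3 and PNP 3. The difference was 1.22 ± 0.36 (95% interval 0.39 to 2.04), or 2.32-fold, with an unadjusted p of 0.00907 and an adjusted p of 0.332 in limma's test. It was 1.47 with array position in the model (adjusted p = 0.167), 1.38 within position 1 and 1.57 within position 2, and 0.26 with slide as a fixed block. Kdm3a also has 1 probe. Of the listed genes, only Hif1a and Kdm3a passed the adjusted threshold when normexp background correction and array position were used together (adjusted p = 0.0300 and 0.0239). The adjusted p of Kdm3a ranged from 0.0239 to 0.989 over its 24 alternative settings.

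Vegfa, Bnip3 and Ankrd37, commonly read as hypoxia markers, had negative differences. Vegfa, the endothelial growth factor, read 3.30, 3.77 and 3.29 against 3.56, 3.07 and 3.63, an overlap with a difference of -0.033 ± 0.24. Bnip3, a mitophagy receptor, read 4.87, 4.83 and 4.48 against 4.31, 4.70 and 4.31 (difference -0.29 ± 0.22). Its groups overlapped, since PNP 2 lay within the untreated range. Ankrd37, a strongly hypoxia-induced ankyrin repeat gene, read 0.036, -0.60 and -0.18 against -1.09, -0.14 and -1.94. PNP 3 and PNP 1 were the lowest arrays and PNP 2 lay among the untreated ones, for a difference of -0.81 ± 0.42 (95% interval -1.77 to 0.14; limma adjusted p = 0.552). It was -0.072 within position 1, -0.92 within position 2 and -0.50 with position in the model. Adm, adrenomedullin, was well above background on 1 of 6 arrays (untreated 1), with readings of -6.23 to -4.07, and no fold was taken.

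Ddit4, a stress-induced inhibitor of mTORC1, read 4.87, 4.25 and 4.56 against 3.84, 4.29 and 3.97. The groups overlapped by a narrow margin, at untreated 2 and PNP 2, and differed by -0.53 ± 0.24 (limma adjusted p = 0.512). P4ha1, a subunit of the collagen prolyl 4-hydroxylase, read 4.65, 4.84 and 4.43 against 4.27, 4.27 and 4.41, which did not overlap (difference -0.32 ± 0.20; limma adjusted p = 0.619). Its second probe differed by -0.0050, with overlapping groups. Car9, a membrane carbonic anhydrase, differed by -0.31 ± 0.23, with separate groups. A second Car9 probe, named after its values were seen like those of Pfkp, P4ha1 and Eno1, differed by -0.80 (limma adjusted p over probes = 0.347). Ndrg1, Higd1a and Mxi1 differed by 0.097, -0.29 and -0.21.

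**Figure D3:**
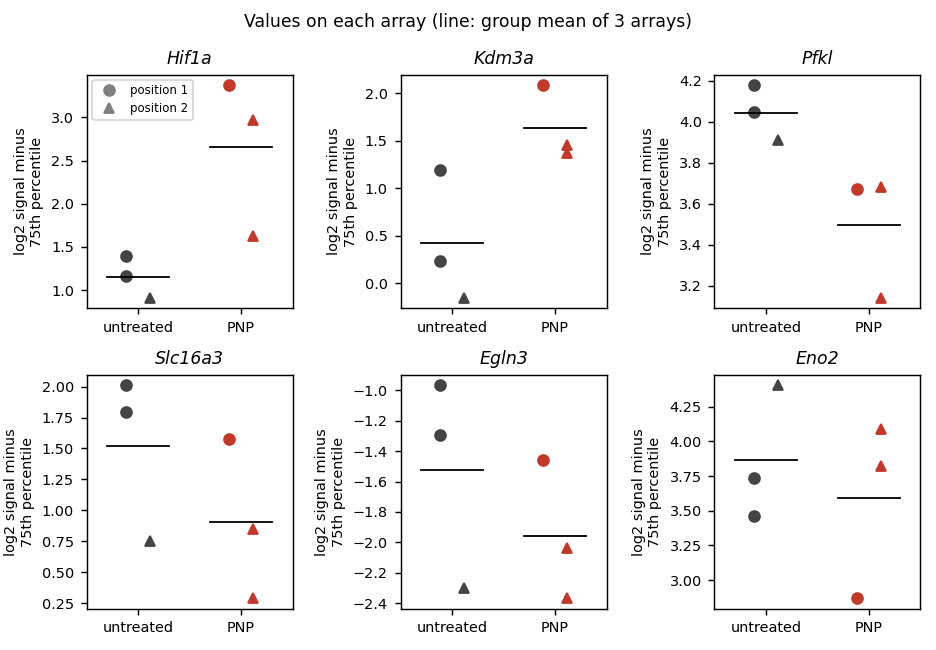
Values of 6 genes on each array (vertical axis, log2 signal minus the array's 75th percentile) by group (horizontal axis); circles are position 1 arrays, triangles position 2 arrays and lines group means of 3 arrays. Hif1a, Kdm3a and Pfkl separate by group, whereas Slc16a3, Egln3 and Eno2 separate by array position.

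The arrays also allowed the values to be compared between the positions on a slide, in a model that holds group as the other term. None of the 39 genes passed the adjusted threshold here, where 561 of 21565 units did (2.60%). The lowest adjusted p was 0.0512, for Slc16a3. At an unadjusted p under 0.05, 6 genes were higher and 6 lower at position 2, or 15.4% each, beside 11.1% and 9.39% of all units. The positions did not overlap for 4 genes that were higher at position 2 (10.3%, against 11.6% of units) and 6 that were lower (15.4%, against 10.8% of units and 12.7% of named genes). These shares lay near those of all units.

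The largest position differences were those of Slc16a3, Egln3, Ankrd37 and Eno2. Slc16a3 was -1.08 ± 0.22 at position 2 relative to position 1, 2.11-fold lower, with an adjusted p of 0.0512 in limma's test. Over 18 settings, this main fit among them, the adjusted p ranged from 0.00807 to 0.471. It was under the threshold in 7 of the 18. It was lower at position 2 on each slide, by differences of -1.26, -1.50 and -0.73 on slides 1, 2 and 3. Slide 1 held untreated cells only and slide 3 PNP cells only, so the direction was present within both groups. Slide 2 held untreated 3 at position 1 and PNP 1 at position 2, so a difference on it is also one between the groups. Egln3 was -0.96 ± 0.21 (limma adjusted p = 0.063), with -1.01, -1.40 and -0.58 on the 3 slides. Egln1 was -0.73 ± 0.21 (limma adjusted p = 0.109), with -1.04, -0.66 and -0.50. Egln3 and Egln1 were each under the threshold in 3 of the 18 settings. Thus all 3 measured oxygen-sensing genes had lower values at position 2 in the model, with a median of -0.73. Hif1a (-0.72) was higher at position 2 on slide 2, where position and treatment cannot be told apart.

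Ankrd37 was -0.95 ± 0.30 at position 2 (limma adjusted p = 0.137), and Pdk1 was -0.85 ± 0.30 (limma adjusted p = 0.166), with all 4 Pdk1 probes lower there by -0.85 to -0.37. Slc2a1 (-0.55), Hk2 (-0.43), Slc16a1 (-0.38), Ddit4 (-0.43) and Kdm3a (-0.77) had the same sign. These genes are recognised HIF targets except Slc16a1, but Vegfa (0.50), Pfkfb3 (0.53) and Ndrg1 (0.48), also HIF targets, had the opposite sign. The HIF target list as a whole was split, with 5 of 10 differences positive and a median of -0.045.

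In the opposite direction, Eno2 was 0.95 ± 0.20 at position 2, 1.93-fold higher (limma adjusted p = 0.0547), with 0.67, 0.36 and 1.22 on slides 1, 2 and 3. Its adjusted p was under the threshold in 5 of 18 settings, the main fit among them. Pfkm (0.62), Aldoc (0.57), Pfkfb3 and Ldhb (0.47) followed it. Of the 19 glycolytic genes 14 (73.7%) were higher at position 2, beside 55.5% of named genes and 56.4% of all units, with a median of 0.10 beside 0.060 over all units. The position differences of the abundant enzymes Tpi1, Pgk1 and Pkm were 0.079, 0.022 and 0.10.

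Single probes gave a similar picture with some exceptions. In the probe-by-probe position model, 952 of 28335 probes passed (3.36%), among them 3 of the listed genes' 60 measured probes: those of Slc16a3 (adjusted p = 0.045 by limma), Eno2 (adjusted p = 0.048) and the dimmer Pfkfb3 probe (0.95, adjusted p = 0.041). The 4 Vegfa probes disagreed, 3 being higher at position 2 by 0.50, 0.22 and 0.54 and 1 lower by -0.60, so the direction of Vegfa by position depended on the probe. For treatment all 4 Vegfa probes had negative differences, from -0.25 to -0.033. Outlier flags left 11 of the 69 probes without a value on some arrays, all of the abundant genes Gapdh, Tpi1, Eno1, Ldha and Pkm. The missing values lay on untreated 1, untreated 3 and PNP 1.

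**Figure D4:**
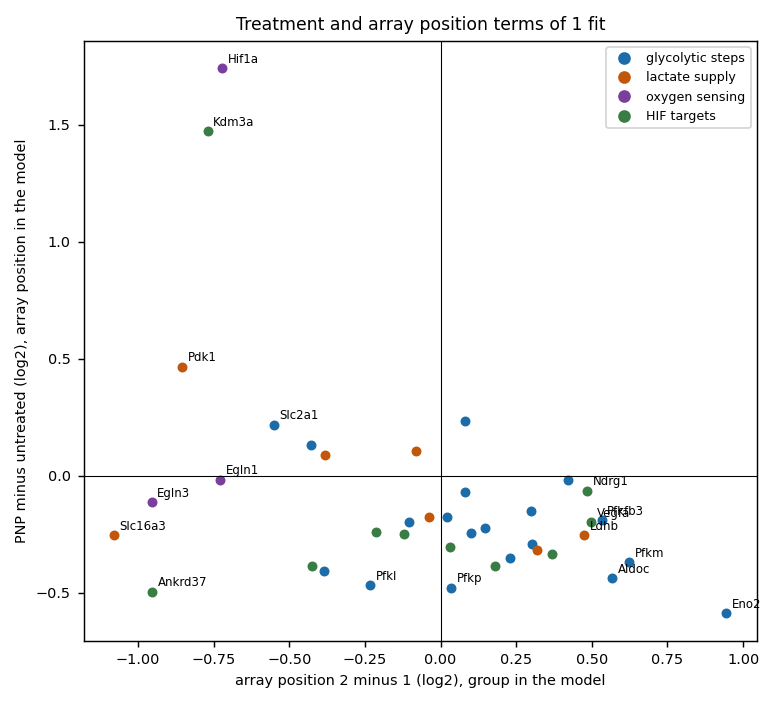
Position 2 minus position 1 difference (horizontal axis, log2) against the PNP minus untreated difference (vertical axis, log2), from 1 model with both terms, for the 39 measured genes coloured by group. Hif1a and Kdm3a lie high on the left, Slc16a3, Egln3 and Ankrd37 at the left below 0, and Eno2 at the lower right.

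With position in the model, some treatment differences became smaller in size and others larger. Slc16a3 went from -0.61 to -0.25, Egln3 from -0.43 to -0.11, Egln1 from -0.26 to -0.017 and Ankrd37 from -0.81 to -0.50. Eno2 went from -0.27 to -0.59 and Pdk1 from 0.18 to 0.47. The median over the listed genes went from -0.19 to -0.22, and that over all units from -0.042 to -0.064.

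Another 110 genes of the same pathways were fixed as lists, of which 86 were measured. None passed the adjusted test for treatment in either direction, 63 of 86 differences (73.3%) were negative beside 62.2% of named genes, and their median was -0.11. The medians were -0.15 for the pentose phosphate pathway (8 of 8 measured, all negative), -0.14 for other HIF targets (27 of 30), -0.12 for regulators of Sertoli glycolysis (10 of 12) and -0.099 for other lactate and pyruvate genes (18 of 23). They were -0.096 for other oxygen-sensing genes (10 of 11), -0.061 for other glycolytic isoenzymes (10 of 17) and -0.20 for other glucose transporters (3 of 9). At an unadjusted p under 0.05, 3 genes were higher and 2 lower (3.49% and 2.33%), beside 6.85% and 3.07% of all units and 3.63% and 2.9% of named genes.

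Arnt, the constitutive partner of HIF-alpha, was the highest of these, with 1.35, 1.79 and 2.63 in untreated and 2.86, 2.79 and 2.81 in PNP cells. The 3 PNP values were close together and above all untreated ones, with a difference of 0.90 ± 0.32 (SE; limma adjusted p = 0.398). The growth factor receptor Fgfr1 differed by 0.60 ± 0.25 and Pdpr, a regulatory subunit of pyruvate dehydrogenase phosphatase, by 0.50 ± 0.21. The HIF-induced repressor Bhlhe40 and the glucose transporter Slc2a6 were lower by differences of -0.49 ± 0.20 each. Their adjusted p in limma's test ranged from 0.472 to 0.5001.

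By array position 4 of these 86 genes (4.65%) passed the adjusted threshold, beside 2.60% of all units and 2.63% of named genes, and they are named here because they passed. Angptl4, a HIF and PPAR target that inhibits lipoprotein lipase, read 2.98, 1.49 and 2.85 in untreated and 1.06, 2.78 and 1.39 in PNP cells. It was lower on every position 2 array, by -1.50 (limma adjusted p = 0.0190). The pyruvate dehydrogenase kinase Pdk2 (1.38), the intracellular glucose transporter Slc2a8 (1.32) and the insulin receptor Insr (1.55) were higher at position 2, with adjusted p from 0.0207 to 0.0246. Angptl4 had the same sign by position as Slc16a3, Egln1 and Egln3, whereas Pdk2 had the opposite sign to Pdk1, a kinase of its family.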

How the data were processed

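Total RNA of 3 untreated and 3 PNP-treated TM4 samples was hybridised to single-colour arrays with 62976 spots, 3671 of them controls, for 56605 probes. Each deposited intensity is a background-subtracted signal from Agilent Feature Extraction, which the file headers give as version 11.5.1.1 and the submitters' processing notes as 10.7. The authors' own log2 values were used as an alternative only; their normalization is not given in the sources used here.

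Log2 signals were averaged over a probe's spots without outlier-flagged ones, less the array's 75th percentile. Of these probes 33767 had a symbol through a RefSeq table of GRCm38.p6, used for names and promoters, since the file headers name another build, and 22838 had none. A probe was kept (28335 were) if it was well above background on every array of either group. Groups and array positions, the latter read from the scanner file names, were compared by lmFit and eBayes of limma 3.58.1, run in R 4.3.3, with Benjamini-Hochberg adjustment over all units. Precision is limited by the number of arrays.

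The genes and lists were chosen with earlier results of these data known. Values on every array are given for a fixed panel, the 6 other members with the smallest unadjusted treatment p and the 4 others with the largest position difference; of other pathway genes, up to 4 per direction with an unadjusted p under 0.05 are named. Alternatives covered background correction (normexp, offset 50), scaling, filters, probe choice, slide and position blocks, the authors' values and leaving out each array.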

Additional observations from a re-analysis of the deposited data

How the results depend on the processing

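Of the 39 genes, 16 kept the sign of their treatment difference under every alternative run (24 for each gene, 23 for Gapdh). Treatment calls over all units, 0 at first, were 93 with normexp plus a position block, 966 within position 1 and 62 within position 2, where 1 group is a single array assumed to vary like the other. They were 0 to 54 when 1 array was left out (54 without PNP 1, 4 without untreated 2). Listed genes called numbered 2 with normexp and the position block, 1 within position 1 and 0 to 1 when 1 array was left out. Listed genes at an unadjusted p under 0.05, 3 at first, numbered 7 with median centring, 6 with probes above background on all 6 arrays, 5 with the median over probes, 6 with normexp and the position block, 5 with a robust variance trend and 2 to 7 when 1 array was left out (7 without untreated 2 or PNP 2). The oxygen-sensing median of -0.26 was 0.29 within position 2, and the HIF target median of -0.29 was -0.24 with normexp, -0.23 with quantile normalization, -0.40 with median centring, -0.22 with the percentile over detected probes, -0.14 with slide as a fixed block and -0.21 on the authors' values. When 1 array was left out the medians ran from -0.29 to -0.23 for HIF targets, -0.61 to -0.086 for oxygen sensing, -0.34 to -0.089 for glycolytic steps and -0.20 to -0.077 for lactate supply. Listed genes called between positions, 0 at first, numbered 3 with normexp, 2 with quantile normalization, 1 with the percentile over detected probes, 3 with probes above background on all 6 arrays, 2 on the authors' values, 3 at an adjusted p under 0.1, 4 with a robust variance trend, 0 whenever 1 array was left out, and 3 with slide as a fixed block in place of the group. The last of these, the robust trend for position and keeping outlier-flagged spots were chosen after seeing the data. The causes were not tested. With the replicate number as a block, 0 units and 0 listed genes were called and 2 had an unadjusted p under 0.05. No label says that a replicate number is shared by both groups, so the numbers were not taken to pair samples. The deviations of same-numbered arrays correlated at -0.42, -0.56 and -0.44. Each such pair sat at opposite array positions and position was not removed, so these values cannot decide whether samples were paired. Signal over background left Epas1 and Adm unmeasured.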
